A study of Mus musculus with 2 samples.

Results

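The CCAAT/enhancer-binding protein (C/EBP) family was examined in brown preadipocytes (D0) and brown adipocytes (D7) by RNA-Seq. The 6 genes were taken by symbol from the table of FPKM values (fragments per kb of transcript, scaled to library size): Cebpa, Cebpb, Cebpd, Cebpg, Cebpz and Ddit3. They are 6 of the 23361 genes with a value, and all 6 were above 0 in both libraries. There was 1 library per stage, so no difference between the stages has a replicate check, and no p-value is given. Both libraries came from cells of the interscapular brown adipose tissue of newborn C57BL/6 mice (C57BL/6J in the methods of the study), cultured in growth medium with 20% FBS. The cells were then plated for 4 days in medium with 10% FBS that held T3 at 1 nM and insulin at 0.1 μM, so the D0 cells had already met insulin and thyroid hormone. Differentiation was induced for 2 days with dexamethasone (2 μg/ml), indomethacin (0.125 mM) and IBMX (0.5 mM), and the D7 cells then stayed in medium without these inducers. The labels call the cells primary, whereas the methods of the study describe immortalization with large T and other concentrations of insulin and dexamethasone. The methods name 4 mice of either sex, 1 day old. Whether cells of several animals were pooled is not given in the sources used here. The days on which the inducers were present were not sampled.

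C/EBPs are basic leucine zipper (bZIP) transcription factors: a basic region grips the DNA and a leucine zipper joins 2 proteins into a dimer. In adipogenesis, C/EBPβ and C/EBPδ are known as early factors that cAMP and glucocorticoid switch on, and C/EBPα as a late factor that, with PPARγ, maintains the genes of the fat cell. C/EBPγ, which lacks an activation domain, and CHOP, the product of Ddit3 and a stress-induced factor, are known as partners that can hold the activating members back in dimers. Cebpz is named with the family but encodes a protein of the CBF/MAK21 group, whose yeast relatives act in the making of the large ribosomal subunit.

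The basic regions are shown first, because they separate the members that bind C/EBP sites from those that do not. Each stretch is coding sequence of 51 bases read 5′ to 3′ from the GENCODE M21 transcripts (GRCm38), and capitals mark the 9 codons of the bZIP basic region signature or, for Ddit3, the 9 codons aligned with them. The stretches lie at chr7:35120283-35120333 (plus strand, Cebpa), chr2:167689703-167689753 (plus, Cebpb), chr16:15887913-15887963 (plus, Cebpd), chr7:35050585-35050635 (minus, Cebpg) and chr10:127295894-127295944 (plus, Ddit3).
Cebpa: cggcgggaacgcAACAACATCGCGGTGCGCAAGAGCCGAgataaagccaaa
Cebpb: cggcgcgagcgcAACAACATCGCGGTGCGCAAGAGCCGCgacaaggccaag
Cebpd: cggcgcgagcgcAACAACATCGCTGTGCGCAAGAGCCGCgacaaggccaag
Cebpg: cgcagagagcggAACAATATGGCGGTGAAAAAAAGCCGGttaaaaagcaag
Ddit3: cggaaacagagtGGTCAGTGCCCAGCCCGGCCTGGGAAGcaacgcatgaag
The signature letters were found in the encoded proteins of Cebpa, Cebpb, Cebpd and Cebpg, and in neither Ddit3 nor Cebpz. At the 9 signature residues, C/EBPα, C/EBPβ and C/EBPδ were identical to each other. C/EBPγ shared 7 of the 9 with each of them, and CHOP shared 1. Over a window of 60 residues from the basic region into the zipper, C/EBPα was 80.0% identical to C/EBPβ, 65.0% to C/EBPδ, 43.3% to C/EBPγ and 26.7% to CHOP. A heptad repeat of 4 leucines was found in the first 4 proteins. It was not found in CHOP or in the 1052 residues encoded by Cebpz, for which no basic region is therefore shown. The letter pattern is strict, since it was also not found in the protein of Cebpe, another C/EBP gene that encodes the signature. A missing match thus does not show that CHOP lacks a zipper.

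The depth behind the values was worked out on 649 single-exon genes, in which 100% of the low values were whole numbers of fragments within 0.1. The denominators were 21471074 fragments at D0 and 18267192 at D7. The 95% intervals given below were taken on the fragments and cover counting error only, not the spread between cultures. Those of the D7 to D0 ratio of a gene are exact (Clopper-Pearson), and those of an FPKM level are exact Poisson intervals. Those of the ratio of summed FPKM use a normal approximation on the log scale (delta method). Of 12 markers of brown adipocytes, the 8 above 0 in both libraries were all at least 2.0-fold higher at D7, and the other 4, Ucp1 among them, were listed at 0 at D0 only. Of 10 markers of preadipocytes, 3 were at least 2.0-fold higher at D7 and 3 at least 2.0-fold lower, and their summed FPKM went from 1407 to 865. Thy1 (657 and 308 FPKM) and Ly6a (546 and 405 FPKM) made most of that sum, while Dlk1 (3.57 and 38.5 FPKM) and Cd34 (1.85 and 15.4 FPKM) rose. Markers of macrophages, cells that also use C/EBPs, moved with the stage: 12 of 13 were at least 2.0-fold higher at D7, and their summed FPKM went from 168 to 652. The 9 granulocyte markers summed to 0.924 and 12.3 FPKM. Of the 4 above 0 in both libraries, 3 were at least 2.0-fold higher at D7. These were S100a8 (0.219 and 5.47 FPKM), Camp (0.665 and 6.30 FPKM) and Mpo (0.0197 and 0.347 FPKM), with about 1, 8 and 1 fragments at D0. S100a9, Elane and Ltf were listed at 0 in both libraries. Cebpe, the C/EBP gene of granulocytes, was also listed at 0 in both. The summed FPKM was 1.62 and 2.69 for 8 endothelial markers, and 51.2 and 4.83 for 10 skeletal muscle markers, of which Acta1 gave 45.4 and 1.73 while Myod1, Myf5, Pax7 and Ckm were listed at 0. The 6 erythroid markers with a value summed to 0.0265 and 0.0312. The part of other cells in the C/EBP values was not tested, and in such bulk samples fewer cells of a type and less RNA per cell cannot be told apart.

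Of the 6 genes, 1 was at least 2.0-fold higher at D7 (Cebpa) and 0 were at least 2.0-fold lower. Among all 14986 genes above 0 in both libraries, 18.5% were at least 2.0-fold higher and 13.2% at least 2.0-fold lower (31.7% either way), so a count of 1 in 6 lies near the background. As deposited, 2767 genes were past the limit upward and 1980 downward, and with a floor of 0.01 FPKM and division by the median of all values the split turned to 2836 and 3832. The median log2 ratio was 0.03 over the 6 genes and 0.02 over all genes. Counting error alone placed Cebpa and Cebpg above a ratio of 1 and Cebpb below it, and the intervals of Cebpd, Cebpz and Ddit3 included 1. The plot of the 6 genes by stage shows these levels.

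**Figure D1:**
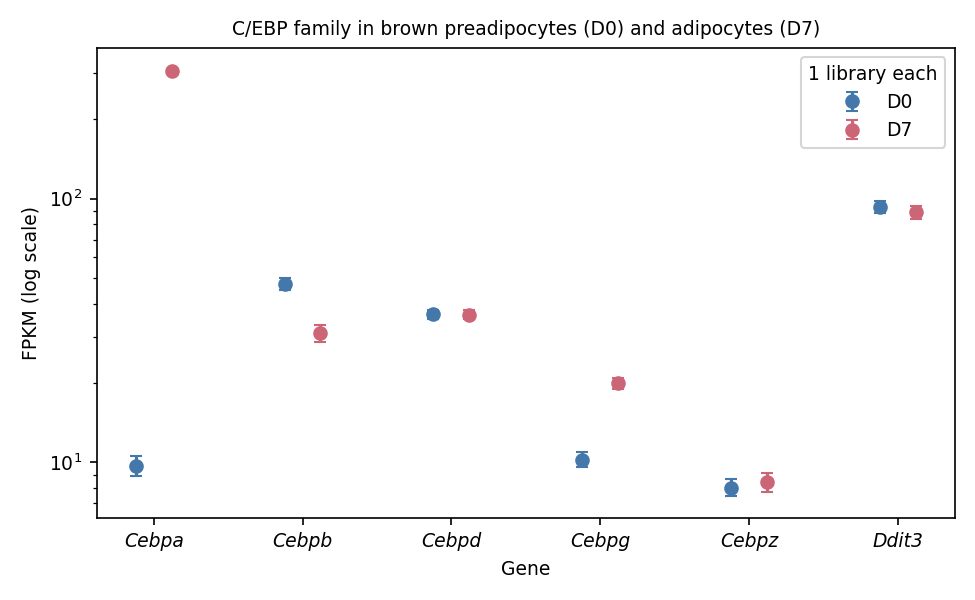
FPKM of the 6 C/EBP family genes at D0 and D7 on a log axis, 1 library per stage, with bars for the 95% counting intervals. Cebpa stood at 9.67 FPKM at D0 and 305 at D7, whereas the other 5 genes lay within 2.0-fold of their D0 level.

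Cebpa encodes C/EBPα, the late activator. It had 9.67 FPKM at D0 and 305 FPKM at D7, which rest on about 508 and 13608 fragments. Cebpa rose 31.5-fold (interval 28.8 to 34.5), a log2 ratio of 4.98. Of the 14986 genes above 0 in both libraries, 181 had a higher ratio. Among all genes with a value, Cebpa moved from rank 6116 at D0 to rank 299 at D7. At D7 its FPKM lay above that of Lyz2 (286), the macrophage marker with the highest value there. Levels of different genes do not show which cells the Cebpa RNA came from, and this was not tested.

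The gene (ENSMUSG00000034957.10, chr7:35119293-35121928, plus strand, GRCm38) is read as a single exon of 2626 bp in the transcript used here. GENCODE M21 also lists a spliced transcript of Cebpa, and 1 value per gene does not tell them apart. The long and short C/EBPα proteins start at different codons of the same RNA and are not told apart by FPKM. The antisense gene Gm45091 overlaps it, and the use of strand in counting is not given in the sources used here. The study also measured C/EBPα by quantitative PCR. Its primer pair is shown because it marks the part of the RNA that this assay reads.
forward primer: caagaacagcaacgagtaccg
reverse primer: gtcactggtcaactccagcac
The pair spans 124 bp of the coding sequence at chr7:35120258-35120381, which includes the basic region stretch printed above.

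The promoter of Cebpa is shown because this gene rose while Cebpg nearby stayed under 2.0-fold. The 250 bases before the start (RefSeq, GRCm38.p6, chr7:35119043-35119292, plus strand) had a GC content of 66.4%, against a median of 52.4% over 32851 promoters of 27025 genes. Capitals mark TTGCG, one arm of the C/EBP palindrome, searched on both strands.
Cebpa promoter: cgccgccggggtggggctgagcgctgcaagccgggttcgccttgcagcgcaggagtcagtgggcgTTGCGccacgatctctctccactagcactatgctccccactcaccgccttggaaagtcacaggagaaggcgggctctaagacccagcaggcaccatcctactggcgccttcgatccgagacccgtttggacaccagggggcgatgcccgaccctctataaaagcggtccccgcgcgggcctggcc
The match begins 185 bases before the start, and TTGCG is present in 14.5% of all promoters of this length. This shorter motif was chosen after the sequences were seen. The whole palindrome TTGCGCAA, present in 0.164% of all promoters, was not found in this window.

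Genes that C/EBPα is known to act on in fat cells were higher together with it. Of 15 such genes on the list, 14 were above 0 in both libraries, and 14 of these 14 were at least 2.0-fold higher at D7, with a median log2 ratio of 7.55. The remaining gene, Lep, which encodes the hormone leptin, was listed at 0 at D0 and had 8.74 FPKM at D7. Among all genes above 0 in both libraries, 18.5% were at least 2.0-fold higher. The list shares Fabp4, Adipoq, Plin1 and Lpl with the brown adipocyte markers, of which 8 of 8 were higher, with a median log2 ratio of 8.18. Such a rise was thus not particular to this list, and whether C/EBPα brought it about was not tested. Pparg, the nuclear receptor that works with C/EBPα, rose from 3.83 to 128 FPKM. Its ratio of 33.5 (28.1 to 40.1) overlapped that of Cebpa within counting error. Fabp4, a fatty acid carrier, rose from 20.3 to 14391 FPKM. Scd1, a fatty acid desaturase, rose from 64.9 to 10775 FPKM. Both stood among the most abundant RNAs of the list at D7.

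Slc2a4, the insulin-responsive glucose transporter, rose 213-fold (154 to 304), from 0.722 to 154 FPKM. Hp, which encodes the plasma protein haptoglobin, rose from 7.19 to 3115 FPKM. Adipoq, which encodes adiponectin, rose from 0.221 to 943 FPKM, and because only about 5 fragments stood behind its D0 value, its interval begins at 1827-fold. Retn, which encodes resistin, had the highest ratio of the list, from about 2 fragments (0.116 FPKM) at D0 to 1416 FPKM at D7. Insr, the insulin receptor, had the lowest at 3.16 (2.95 to 3.38), with 5.90 and 18.6 FPKM. The ratio of Cebpa itself lay above 1 of these 14 genes and below 13.

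Cebpb encodes C/EBPβ, an early activator. Its FPKM was 47.5 at D0 and 30.9 at D7, from about 1351 and 745 fragments. The level was thus 1.54-fold lower at D7 (ratio 0.650, interval 0.593 to 0.711), inside the 2.0-fold limit. Cebpb (ENSMUSG00000056501.3, chr2:167688915-167690418, plus strand) has 1 exon of 1504 bp in the transcript used, and a transcript of Tmem189 overlaps it on the other strand. As for C/EBPα, its activating and inhibitory protein forms come from 1 RNA and share 1 value here.

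The promoter of Cebpb is shown because the IBMX in the induction mix raises cAMP, whose element is TGACGTCA. Capitals mark one arm of it, TGACG, searched on both strands in the 250 bases before the start (RefSeq, GRCm38.p6, chr2:167688665-167688914, plus strand, GC content 81.6%).
Cebpb promoter: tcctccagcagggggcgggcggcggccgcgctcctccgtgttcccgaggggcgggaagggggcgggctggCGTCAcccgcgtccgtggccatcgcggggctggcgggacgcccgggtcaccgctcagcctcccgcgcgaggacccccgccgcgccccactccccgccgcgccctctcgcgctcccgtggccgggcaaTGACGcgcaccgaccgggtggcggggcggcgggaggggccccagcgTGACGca
There were 3 matches, beginning 180, 53 and 7 bases before the start, the first of them on the minus strand. TGACG was present in 17.8% of all promoters and was not found in the windows of Cebpa, Cebpg and Ddit3. This shorter motif was chosen after the sequences were seen. The share counts promoters with any match, whatever their GC content, so it is no measure for 3 matches in this window. The whole element, present in 1.55% of all promoters, was found in none of the 4 windows that the promoter table holds for the family. The same was true of the C/EBP-ATF element (TGATGCAA or TTGCATCA, 0.792% of all promoters) and of TTCCNGGAA, a site of STAT factors (0.913%).

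Cebpd encodes C/EBPδ, the other early activator. It had 36.5 FPKM at D0 and 36.4 FPKM at D7, from about 2792 and 2369 fragments. The ratio was 0.998 (0.944 to 1.05), the closest to 1 of the family as deposited. After division by the median of genes above 0 in both libraries it was 0.931, and Cebpz was then closer to 1 (0.979). Cebpd (ENSMUSG00000071637.5, chr16:15887286-15891031, plus strand) has 1 exon of 3746 bp in the transcript used and overlaps Spidr on the other strand. The span deposited for Cebpd is wider than this gene. It also holds the pseudogene Gm18334 on the same strand and the rRNA gene n-R5s31 on the other. Its value may thus hold reads of theirs, and its fragments and intervals are approximate. The order of the early pair turned between the stages: Cebpb had 1.30 times the FPKM of Cebpd at D0, and Cebpd had 1.18 times that of Cebpb at D7. In both libraries their counting intervals did not overlap (45.0 to 50.1 against 35.1 to 37.8 at D0, and 28.7 to 33.2 against 34.9 to 37.9 at D7).

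Of 11 genes known to switch on the early C/EBPs or to act beside them, 2 were at least 2.0-fold higher at D7 and 0 lower, with a median log2 ratio of 0.15. Stat5a, which relays growth hormone and prolactin signals, rose 2.85-fold (2.52 to 3.23), from 4.58 to 13.1 FPKM. Klf5, a Krüppel-like factor downstream of C/EBPβ and C/EBPδ, rose 2.92-fold, from 0.693 to 2.02 FPKM, and had the highest ratio of the list. Nr3c1, the glucocorticoid receptor through which dexamethasone acts, had 11.1 and 19.7 FPKM, a ratio of 1.78 (1.66 to 1.90). Stat5b had 7.05 and 12.7 FPKM (ratio 1.80). The cAMP-responsive factor gene Creb1 had 3.02 and 3.80 FPKM (ratio 1.26).

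Klf4 and Egr2, known as early activators of Cebpb, did not reach 2.0-fold. Klf4 had 32.8 and 25.8 FPKM (ratio 0.786), and Egr2, at 0.769 and 0.689 FPKM, had an interval of 0.560 to 1.42. Stat3 had the lowest ratio of the list, 0.588, with 87.3 and 51.4 FPKM. Ratios above and below 1 both occurred within the list.

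Cebpg encodes C/EBPγ, a short bZIP protein of 150 residues, against 359 for C/EBPα. It had 10.3 FPKM at D0 and 20.0 FPKM at D7, from about 997 and 1654 fragments. The ratio of 1.95 (1.80 to 2.11) lay just under 2.0-fold, and its interval spans that limit. Cebpg (ENSMUSG00000056216.9, chr7:35046422-35056573, minus strand, 2 exons) lies 62719 bases from Cebpa. At D0 both genes of this pair stood at the same level within counting error (9.63 to 10.9 FPKM for Cebpg, 8.85 to 10.6 for Cebpa), and at D7 they stood at 20.0 and 305 FPKM. Gm44836 and Gm45094 on the same strand and Gm45095 on the other overlap Cebpg, so its value may hold reads of theirs.

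Ddit3 encodes CHOP. It had 93.2 FPKM at D0 and 88.8 FPKM at D7, from about 1423 and 1149 fragments, and the ratio of 0.953 (0.881 to 1.03) included 1. Ddit3 (ENSMUSG00000025408.15, chr10:127290774-127296288, plus strand, 4 exons) overlaps Mars on the other strand. At D0 it was the highest of the family, at 9.64 times the FPKM of Cebpa. At D7 Cebpa stood at 3.43 times the FPKM of Ddit3. CCAAT, a box held by 33.9% of all promoters, was found on the minus strand 77 bases before the start of Ddit3, and 89 and 28 bases before that of Cebpg.

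CHOP is known as the endpoint of the integrated stress response, in which the kinase PERK and its relatives raise ATF4, and ATF4 raises Ddit3. Of 30 genes of that response, 2 were at least 2.0-fold higher at D7 and 6 at least 2.0-fold lower, with a median log2 ratio of -0.48. Atf4 itself had 204 and 115 FPKM, a ratio of 0.564 (0.540 to 0.588). Chac1, which breaks down glutathione and is a target of ATF4 and CHOP, had the lowest ratio and fell to 0.340 of its D0 level (0.278 to 0.413), from 14.7 to 5.01 FPKM. The others at least 2.0-fold lower had ratios of 0.341 to 0.494. They were the serine and one-carbon enzymes Psat1, Phgdh, Shmt2 and Mthfd2 and the amino acid transporter Slc7a5. By counting error alone, the interval lay below 1 in 19 of the 30 genes and above 1 in 8.

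The genes of the list at least 2.0-fold higher were Vldlr, a lipoprotein receptor, and Atf3. Vldlr had the highest ratio (3.86, from 4.85 to 18.7 FPKM), and it is also a gene of fat cells. Atf3, a bZIP repressor induced by stress, rose 2.26-fold, from 1.97 to 4.46 FPKM (1.77-fold with the floor and median scaling). Asns, which makes asparagine, had 89.1 and 52.1 FPKM (ratio 0.585), Atf5 had 323 and 350 FPKM (1.09), and Eif2ak3, which encodes PERK, had 9.05 and 8.05 FPKM (0.889). Beside these genes, the ratio of Ddit3 lay above 21 of the 30 and that of Cebpg above 28 of the 30.

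Of 20 genes of the unfolded protein response of the endoplasmic reticulum, 2 were at least 2.0-fold higher and 1 lower, with a median log2 ratio of -0.17. Ero1a, an oxidase that CHOP is known to raise, rose 2.97-fold, from 36.8 to 110 FPKM, and Dnajb9, a chaperone partner, rose 2.89-fold. Creld2 was lowest, at 0.498. Hspa5, the chaperone BiP, had 405 and 351 FPKM (ratio 0.867), and Xbp1 had 60.4 and 74.7 FPKM (1.24). The ratio of Ddit3 lay above 11 of these 20 genes.

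The list of genes that regulate C/EBP proteins held 11 genes, of which 1 was at least 2.0-fold higher and 1 lower, with a median log2 ratio of 0.16. The Tribbles proteins of Trib1 and Trib2 are known to bring C/EBPα to a ubiquitin ligase for breakdown. Trib1 rose 2.18-fold (1.89 to 2.52), from 3.33 to 7.25 FPKM (1.71-fold with the floor and median scaling described above), whereas Trib2 fell to 0.433 of its D0 level (0.386 to 0.485), from 13.3 to 5.77 FPKM. Trib3, which is induced by CHOP, had 23.0 and 26.5 FPKM (ratio 1.15, 1.05 to 1.26). Runx1t1, which restrains C/EBPβ, had 3.75 and 3.50 FPKM, and its interval of 0.772 to 1.13 included 1. As deposited, the paralogs Trib1 and Trib2 passed 2.0-fold in opposite directions.

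Cebpz was the lowest of the 6 genes in both libraries. It had 8.03 FPKM at D0 and 8.42 FPKM at D7, from about 671 and 598 fragments, a ratio of 1.05 (0.938 to 1.17). Cebpz (ENSMUSG00000024081.9, chr17:78919006-78937066, minus strand) has 16 exons and overlaps Cebpzos on the other strand. Of 28 other genes of ribosome biogenesis, 0 were at least 2.0-fold higher and 3 at least 2.0-fold lower, with a median log2 ratio of -0.52. In 27 of the 28 the interval lay below 1. The ratio of Cebpz lay above all 28.

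Among its closest relatives by function, Noc2l had 24.4 and 15.4 FPKM (ratio 0.633) and Noc3l had 6.11 and 4.00 FPKM (0.654). Nop56, a box C/D snoRNP protein, fell to 0.349 of its D0 level, from 43.5 to 15.2 FPKM. The others at least 2.0-fold lower were Fbl (0.440) and Nop58 (0.483), which belong to the same particle. Brix1 had the highest ratio of the list, 0.916 (0.819 to 1.02). The subunits of NF-Y, the trimer that binds CCAAT boxes, did not reach 2.0-fold, with a median log2 ratio of -0.41. Nfya had 12.6 and 9.21 FPKM (ratio 0.730), Nfyb 8.38 and 6.31 FPKM (0.753), and Nfyc 17.5 and 19.4 FPKM (1.11, 0.993 to 1.24).

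**Figure D2:**
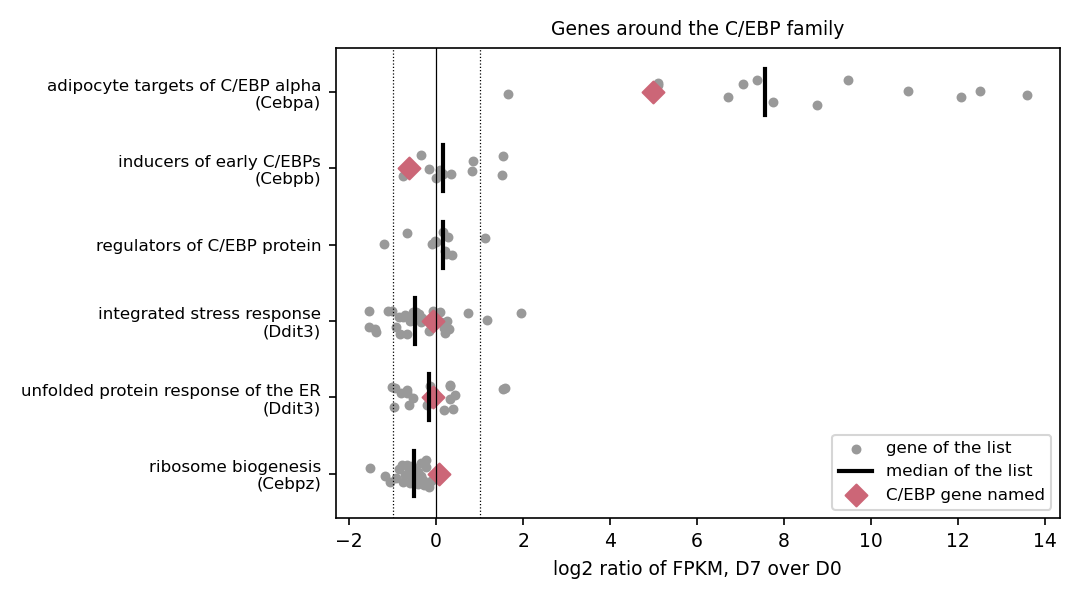
Log2 ratio of D7 to D0 for the genes of 6 lists, with each gene as a grey point, the list median as a bar, a diamond for the C/EBP gene named beside the list, and dotted lines at 2.0-fold. The adipocyte targets of C/EBPα have a median of 7.55, whereas those of the integrated stress response (-0.48) and ribosome biogenesis (-0.52) lie below 0.

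Because bZIP proteins act as pairs, the members were also set against each other within each library. FPKM is per length, so levels of different genes can be compared, but RNA levels are not protein or dimer levels. The 3 activating genes (Cebpa, Cebpb, Cebpd) summed to 93.6 FPKM at D0 and 372 at D7. The sum of the 2 inhibitory partners (Cebpg, Ddit3) was 103 FPKM at D0 and 109 at D7. The ratio of the sums was 0.905 (0.855 to 0.958) at D0 and 3.42 (3.25 to 3.60) at D7, which is 3.78 times higher. Without Cebpb, whose short protein form is inhibitory, the ratio was 0.446 at D0 and 3.13 at D7, which is 7.03 times higher. Because Cebpb was lower at D7, leaving it out necessarily enlarges this change. C/EBPα also has a short form, and sums without Cebpa were not taken. Neither Cebpb (47.5 and 30.9 FPKM) nor Cebpd (36.5 and 36.4 FPKM) was higher at D7, so the rise of the ratio rests on Cebpa alone.

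The gain of the sum lay in Cebpa. The sum of the 5 bZIP members went from 197 to 481 FPKM, a gain of 284, while Cebpa alone gained 295. Its share of the sum was 4.91% at D0 and 63.4% at D7. The share of Ddit3 was 47.3% and 18.5%, that of Cebpb 24.1% and 6.42%, that of Cebpd 18.5% and 7.57%, and that of Cebpg 5.20% and 4.16%. The Ddit3 share was thus smaller at D7 although its own FPKM stayed within counting error.

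**Figure D3:**
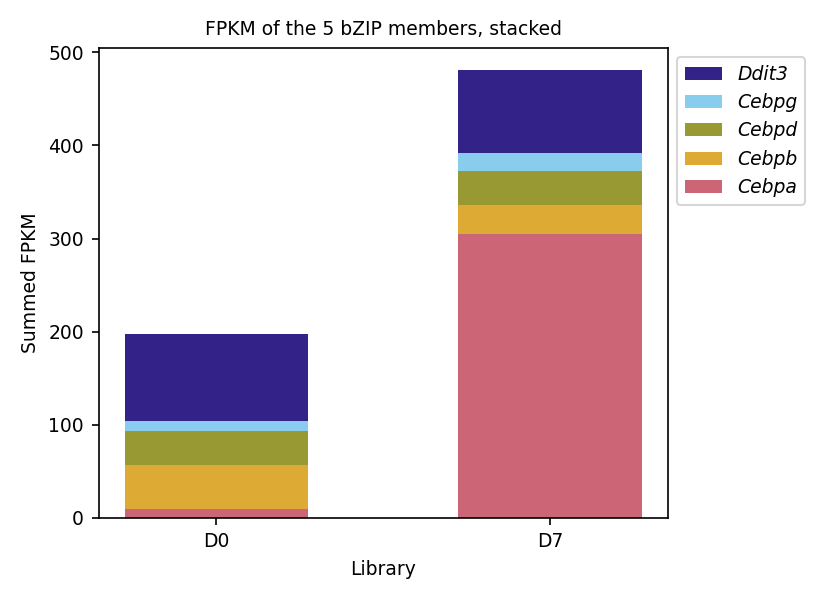
Summed FPKM of the 5 bZIP members at D0 and D7 as stacked bars, 1 library per stage. The sum was 197 FPKM at D0, of which Ddit3 made 47.3%, and 481 FPKM at D7, of which Cebpa made 63.4%.

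Among 53 bZIP genes, 49 were above 0 in both libraries, of which 6 were at least 2.0-fold higher and 7 at least 2.0-fold lower. Among all genes above 0 in both, 18.5% were at least 2.0-fold higher and 13.2% at least 2.0-fold lower. The median log2 ratio of the 49 bZIP genes was 0.06. The ratio of Cebpa lay above those of the 48 others, that of Cebpg above 42, Cebpd above 22, Ddit3 above 19 and Cebpb above 10. By FPKM, Cebpa moved from rank 28 of the bZIP genes to rank 2. Only Atf5 lay above it at D7 (350 FPKM), and this gene was at rank 1 in both libraries. Atf4 was at rank 2 at D0 and rank 4 at D7. Cebpb went from rank 9 to rank 11, Cebpd from 14 to 9, Cebpg from 26 to 17, and Ddit3 from 4 to 5. The lowest ratio among bZIP genes with at least 1 FPKM was that of Junb, an AP-1 subunit, at 0.257 (0.226 to 0.292), from 37.9 to 9.74 FPKM.

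**Figure D4:**
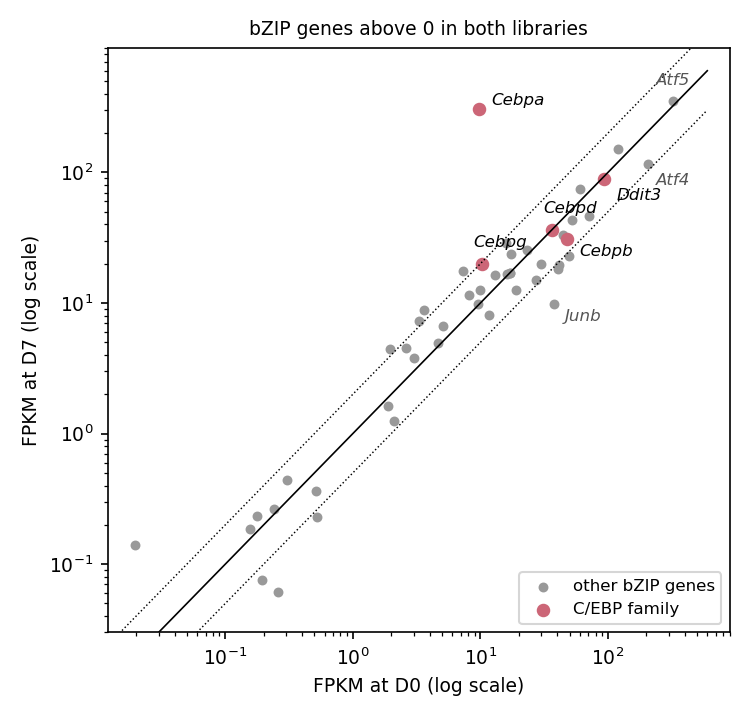
FPKM of bZIP genes at D0 (horizontal) and D7 (vertical) on log axes, with the 5 C/EBP members of this class marked and lines at equal level and at 2.0-fold. Cebpa lies farthest above the line of equal level among genes with at least 1 FPKM in a library, and Junb farthest below it.

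The genes nearest to each member in log2 FPKM over the 2 libraries were also found, as a description of these values alone. Nearest to Cebpa was Chchd10, a gene of a mitochondrial protein, with 9.69 and 299 FPKM and a distance of 0.029 log2 units. Chpt1, a choline phosphotransferase gene, had 11.1 and 246 FPKM, and Cox7a1, which encodes a subunit of cytochrome c oxidase, had 7.96 and 389 FPKM. The nearest to Cebpb were Abcf2, Guk1 and Bub3, those to Cebpd were Ola1, Usp19 and Plbd2, and those to Cebpg were Plagl1, Nudt18 and Vac14. Ccnt1, Nr1d2 and Haus1 lay nearest to Cebpz, and Arl6ip5, Psma5 and Glrx3 to Ddit3.

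The ratios depend on how the libraries are scaled. Dividing each library by the median of all its values, with a floor of 0.01 FPKM, shifts the ratios of the members by -0.35 on the log2 scale and the median of all genes to -0.34. Under it Cebpa had a ratio of 24.7, Cebpg 1.53 and Cebpz 0.821, so that Cebpz turned from just above 1 to below it. The median log2 ratios just above 0 also turned under it, to -0.29 for the bZIP genes, -0.21 for the list around the early C/EBPs and -0.19 for the regulators of C/EBP proteins. The counts of genes past 2.0-fold moved with it. The integrated stress response then had 1 gene higher and 12 lower, Atf4 (0.441) and Asns (0.459) among the latter. The unfolded protein response had 2 higher and 6 lower, ribosome biogenesis 0 higher and 9 lower, Noc2l (0.496) among them, and the bZIP genes 2 higher and 10 lower. The regulators of C/EBP proteins had 0 higher and 2 lower, and the list around the early C/EBPs 2 higher and 1 lower (Stat3, 0.461). The 14 targets of C/EBPα above 0 in both libraries were all still higher. Cebpa was the sole member past 2.0-fold under each alternative run.

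**Figure D5:**
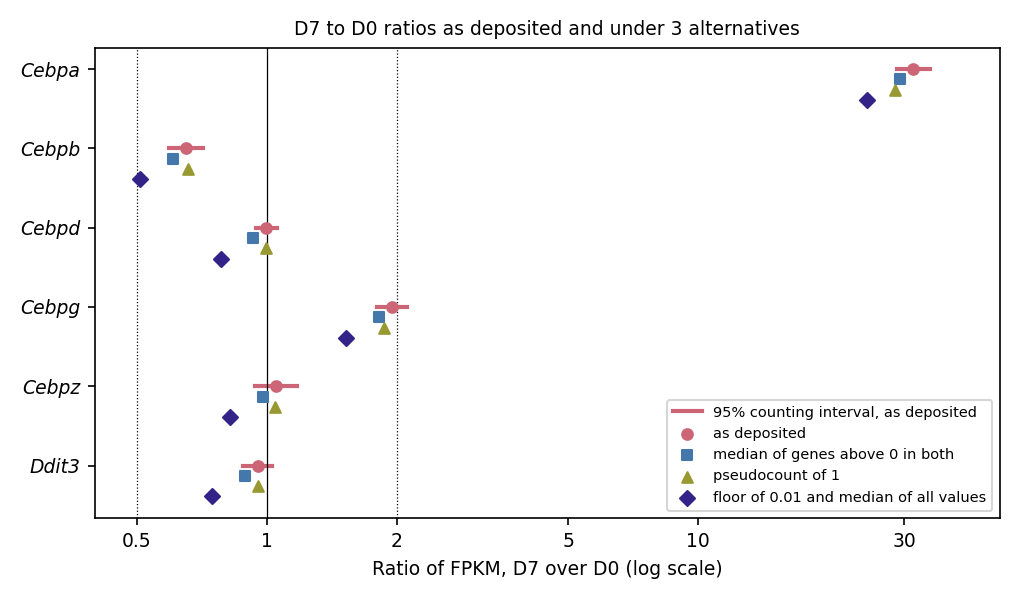
Ratio of D7 to D0 of the 6 genes on a log axis, as deposited with the 95% counting interval and under 3 alternatives. Cebpa lies between 24.7 and 31.5 in all 4, and the points of the other 5 genes stay between the lines at 0.5 and 2.0.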

How the data were processed

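RNA-Seq values of 2 libraries, D0 and D7, were used. The authors removed duplicate and rRNA reads, and used SOAP2 to align the rest to gene sequences and the mm10 genome (the submitters' processing notes name Bowtie2). The deposited unit is FPKM, with 1 value for a gene in each library. Of 27324 rows, 3963 held no value. Ratios of D7 to D0 were taken without a pseudocount, and a gene was called at 2.0 or more or at 0.5 or less. Only this limit was taken from the study's methods, whose text gives no scaling, so the ratios are not the study's own folds. Fragments were recovered from genes with 1 exon of at least 600 bp, by subtracting 179 bp (D0) or 182 bp (D7) from the length. Denominators from 12000000 to 30000000 were searched. Since a multiple of the true denominator also gives whole numbers, the found values divided by 2 were tried, and 33.7% (D0) and 35.7% (D7) of the low values were then whole. For other genes the counts are approximate, because the transcript length came from GENCODE M21.

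The members, gene lists and the rule for named genes (all members, fixed role genes, the highest and lowest ratio of each list at an FPKM of at least 1, the 3 nearest genes) were chosen with earlier results of these data known. Genes given as past 2.0-fold outside this rule, and the shorter motifs TTGCG and TGACG, were chosen after values and sequences were seen. Alternatives were pseudocounts of 0.1 and 1, 4 rescalings, a filter at 1 FPKM, a threshold of 4.0-fold and sums without Cebpb. The counts of list genes under the floor and median scaling were added after seeing the data. Proteins were translated from GENCODE and aligned with Biopython 1.88. Promoters came from RefSeq (GRCm38.p6), which the table gives for 4 members. Scripts (scipy 1.17.1, pandas 2.3.3, numpy 2.4.6, matplotlib 3.10.9, Python 3.11.15) were tested on simulated data.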

Additional observations from a re-analysis of the deposited data

How the results depend on the processing

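Under 8 alternatives, 1 member (Cebpa) was at least 2.0-fold higher and 0 lower. With a floor of 0.01 FPKM and division by the median of all values, the ratio was 24.7 for Cebpa, 0.509 for Cebpb, 0.782 for Cebpd, 1.53 for Cebpg, 0.821 for Cebpz and 0.746 for Ddit3, and of all genes 2836 were at least 2.0-fold higher and 3832 lower, against 2767 and 1980 as deposited. Cebpb then lay close to the limit of 0.5. With a pseudocount of 1, the ratio of Cebpa was 28.7 and the counts were 1455 and 1009. A threshold of 4.0-fold gave 1211 and 578. Division by the median of genes above 0 in both libraries gave 0.931 for Cebpd. Without Cebpb, whose short form is inhibitory, the activating to inhibitory ratio was 0.446 at D0 and 3.13 at D7. Of 98 median ratios of 14 lists under alternatives, 92 stayed within a rank interval of the list's median taken over its genes and 6 did not. Why the scalings differ was not tested. No paired analysis was possible because there was 1 library per stage. Depth limits genes such as Retn and Adipoq, with 2 and 5 fragments at D0.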

Other observations

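Some other bZIP genes are given here as values. Of the 49 bZIP genes above 0 in both libraries, 6 were at least 2.0-fold higher and 7 at least 2.0-fold lower, against 18.5% and 13.2% of all genes. Of the AP-1 genes, Fosl2 fell from 49.6 to 23.0 FPKM (ratio 0.464, interval 0.443 to 0.485) and Jdp2 from 41.6 to 19.5 FPKM (0.469), while Jun (19.1 and 12.5 FPKM) and Jund (44.7 and 33.0 FPKM) did not reach 2.0-fold. Fos had 2.60 and 4.50 FPKM (1.73, 1.34 to 2.23). Maf, a large Maf factor, rose from 7.36 to 17.6 FPKM (2.39, 2.21 to 2.58), and its ratio was 1.87 with the floor and median scaling. Creb3l1, a membrane-bound factor of secretory cells, fell from 40.9 to 18.1 FPKM (0.442). The clock output genes Tef (16.0 and 28.8 FPKM, ratio 1.80) and Dbp (9.91 and 12.6 FPKM, 1.27) were higher within 2.0-fold. These genes were chosen after their values were seen, and the part of other cells was not tested.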
